A study of Mus musculus with 96 samples.

Results

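Cry1 and Cry2 encode the cryptochromes, repressors of the circadian clock, and the livers described here are those of Cry1/2 double knockout (Cry KO) and wild-type (WT) mice at zeitgeber time 12 (ZT12). By convention lights go off at that hour. The members are the libraries whose labels give the Cry line and ZT12, 8 of the 96 libraries of the series. They fall into 4 groups of 2 livers from mice of 12 to 16 weeks, namely Cry KO fed ad libitum (KO AL), Cry KO fed at night only (KO RF, restricted feeding), WT fed ad libitum (WT AL) and WT fed at night only (WT RF). The other Cry-line libraries, 40 livers at ZT0, ZT4, ZT8, ZT16 and ZT20, were used only to ask how the knockout effect at ZT12 differed from that at other times. The labels give no sex and say neither how the knockout alleles were made nor whether each library is a separate animal. The p-values therefore describe library-to-library spread, which may be technical. The labels name no tissue restriction of the knockout, and all 8 samples are bulk liver, in which fewer cells of a type and less RNA per cell cannot be told apart.

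In the mammalian clock, BMAL1 (gene Arntl) and CLOCK bind E-box sequences and drive the genes of their own repressors, the PER and CRY proteins, and of REV-ERBα and REV-ERBβ (Nr1d1, Nr1d2), DBP and the other PAR bZIP factors. PER and CRY proteins accumulate, enter the nucleus and block BMAL1 and CLOCK, so that E-box genes of the mouse liver peak in the late day and lie low around dawn. REV-ERB repressors and ROR activators compete at a second element, the RORE, and set the opposite rhythm of Arntl. Mice without both cryptochromes have no free-running rhythm. CRY repression is considered weak around ZT12 and strong around dawn.

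Because the results below turn on E-box and RORE genes, 3 promoters are shown as RefSeq windows of build GRCm38.p6, which shares its coordinates with mm10, each from 250 bases before to 50 bases after a start site. They are read 5′ to 3′ on the gene's own strand, and capitals mark E-boxes (CACGTG) or RORE cores (TAGGTCA) found on either strand. Ciart (chr3:95882179-95882478, minus strand) stands for an E-box gene whose groups overlapped at ZT12, and its E-boxes begin at positions -116, -58 and -44 from the start. Arntl (chr7:113207261-113207560, plus strand) carries 1 RORE core at position 30. Smpdl3b (chr4:132757122-132757421, minus strand), with an E-box at position 42, is the gene with the smallest p at ZT12. These were picked after values were seen, because neither of the called genes of the E-box list held CACGTG in its window.
Ciart: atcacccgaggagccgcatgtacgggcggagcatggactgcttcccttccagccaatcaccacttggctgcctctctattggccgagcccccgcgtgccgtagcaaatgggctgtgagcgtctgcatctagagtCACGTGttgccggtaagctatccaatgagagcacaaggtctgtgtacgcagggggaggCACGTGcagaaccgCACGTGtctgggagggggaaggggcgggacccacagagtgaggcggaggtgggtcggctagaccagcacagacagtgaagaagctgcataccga
Arntl: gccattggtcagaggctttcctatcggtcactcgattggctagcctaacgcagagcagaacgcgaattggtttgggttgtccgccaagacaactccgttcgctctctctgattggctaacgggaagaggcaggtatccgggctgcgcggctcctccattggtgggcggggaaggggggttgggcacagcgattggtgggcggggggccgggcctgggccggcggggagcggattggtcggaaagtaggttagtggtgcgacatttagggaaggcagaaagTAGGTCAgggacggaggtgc
Smpdl3b: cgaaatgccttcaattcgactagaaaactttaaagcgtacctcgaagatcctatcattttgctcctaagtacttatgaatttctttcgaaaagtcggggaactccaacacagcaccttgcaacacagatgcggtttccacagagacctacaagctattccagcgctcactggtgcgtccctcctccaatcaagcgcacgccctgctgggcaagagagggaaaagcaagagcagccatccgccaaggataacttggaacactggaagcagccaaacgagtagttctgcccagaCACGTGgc
CACGTG was in 7.15% of all 32851 windows and in 9.58% of the 13684 windows of genes tested, against 8 of 54 windows (14.8%) of genes higher in KO and 2 of 22 (9.09%) of genes lower in KO at ZT12. TAGGTCA was in 2.05% of the windows of genes tested, in 3 of the 54 and in 0 of the 22. A gene can have several windows or none. The 54 windows belonged to 43 of the 54 genes higher in KO, and the 22 to 20 of the 32 genes lower in KO. The 8 windows with CACGTG belonged to 7 genes. A match is a description of letters, and none of these shares was tested.

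The deposited values are raw counts per Ensembl gene. Totals at ZT12 ran from 4883930 to 27857122 counts, and the shallowest were both KO RF livers, with 8037894 and 4883930, with 40.2 and 24.4 counts at a level of 5 CPM. Levels are given in CPM, counts relative to library size as scaled by TMM over the 48 Cry-line libraries. Counting error is therefore largest in KO RF. Some livers stood apart before any comparison. WT RF replicate 6 held 21250 CPM of Saa1, an acute-phase protein, against 10.7 to 411.9 CPM in the other 7, and WT AL replicate 2 held 104.1 CPM of Isg15, an interferon-induced gene, against 1.16 to 10.9 CPM. KO AL replicate 2 had 11.3% mitochondrial counts against 4.43% to 8.38% elsewhere, and a summed level of 10 endothelial markers of 167.1 CPM against 305.5 to 507.5 CPM. KO RF replicate 5 held 90.7 CPM of 9 exocrine pancreas markers, against 0.225 to 2.45 CPM in the others. The summed hepatocyte markers overlapped between genotypes, at 107700 to 137000 CPM in KO and 94140 to 120600 CPM in WT, so the labelled tissue was present in every library.

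The targeted genes were read first. Transcripts counted to Cry2 (chr2:92403646-92434043, minus strand) stood at 19.4 and 24.1 CPM in KO AL and 25.9 and 12.7 in KO RF livers. Its level was 56.3 and 47.5 CPM in WT AL and 37.7 and 49.6 in WT RF livers, so that every KO liver lay below every WT liver. The difference was a log2 fold change of -1.21 ± 0.21 (SE, 4 against 4 livers; adjusted p = 0.0481, edgeR quasi-likelihood test), close to the threshold of 0.05, and it was kept in 1 of 8 fits that each left out 1 liver. Cry1 (chr10:85131700-85185064, minus strand) stood at 9.55 and 6.29 CPM in KO AL and 11.6 and 5.7 in KO RF livers. Its level was 13.5 and 14.5 CPM in WT AL and 10.7 and 16 in WT RF livers. The 2 ranges overlapped, and the log2 fold change of -0.71 ± 0.25 did not pass (adjusted p = 0.296). The labels do not say which exons were removed, so a count over the whole gene includes whatever transcript the altered alleles still make, and neither gene at ZT12 is a full check of the labels. Across the day the difference was clearer for Cry1, whose WT level rose to a mean of 55.4 ± 11.0 CPM (SD, n = 4) at ZT20 while the 4 KO livers stayed at 6.23 to 12.7 CPM.

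With feeding regimen as a block, 86 of 14622 genes tested differed between KO and WT at ZT12 (0.588%; Benjamini-Hochberg adjusted p under 0.05), 54 higher in KO (0.369%) and 32 lower (0.219%). The changes called were large, 78 of them at least 2-fold and 34 at least 4-fold. In 84 of the 86 no KO liver overlapped any WT liver, where 9.04% of all genes tested showed no overlap, and all 86 had the same sign within AL and within RF. The 86 were selected on these same livers over both regimens, so neither count is independent support for the calls. The number of calls depended on the livers and the tool. It was 8 without KO RF replicate 5, 125 without WT RF replicate 6 and 34 without both WT livers high in Saa1 or Isg15. DESeq2 called 559, and 1753 genes had an unadjusted p under 0.05. When all 48 Cry-line livers set the spread, 691 of 17227 genes were called at ZT12 (4.01%; 2.19% higher and 1.82% lower), 84 of the 86 among them. That fit called 398 genes at ZT0 (2.31%), 447 at ZT4 (2.59%), 509 at ZT8 (2.95%), 129 at ZT16 (0.749%) and 128 at ZT20 (0.743%). Fitted alone on its own 8 livers, each other time gave 280 calls at ZT0 (1.89%), 300 at ZT4 (2.04%), 281 at ZT8 (1.89%), 103 at ZT16 (0.704%) and 39 at ZT20 (0.269%), so that ZT12 had the most calls of the 6 times in the fit of 48 livers and fewer than 4 of the other 5 when each was fitted alone. The fit of 48 takes every liver as independent, whereas KO AL replicates 1 and 2 differed from each other alike at all times: over 9431 genes at a mean of 5 CPM or more, their log2 differences at any 2 times correlated at r = 0.632 to 0.839, against -0.083 to 0.557 in the other 3 groups. The fit of the 8 ZT12 livers holds each replicate of a group once. Of 38 called genes named here, 18 kept the call in at least 4 of the 8 fits that left out 1 liver and 7 in all 8. Cry2, Oat, Slc1a2, Pdk4 and Tlr5 kept it in 1, and Hsph1 and Syvn1 in 0. The plot of called genes shows 15 of them liver by liver.

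**Figure D1:**
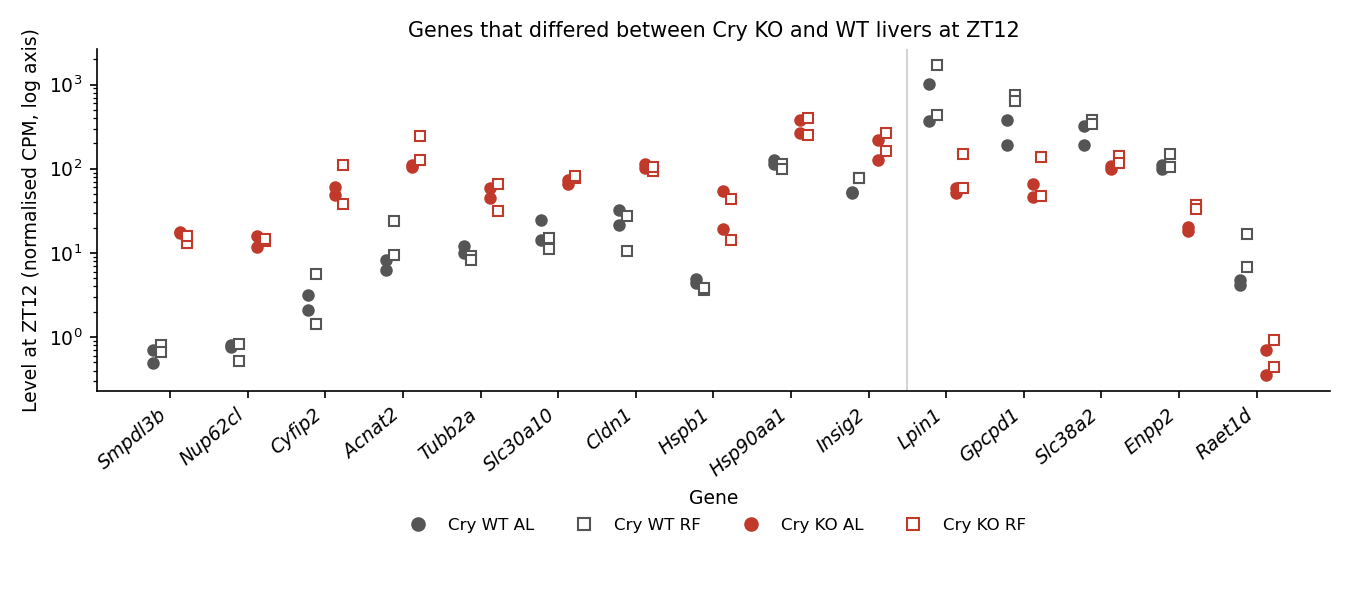
Levels of 15 genes called at ZT12 in each of the 8 livers (y axis, normalised CPM on a log axis; x axis, gene; grey WT, red KO; filled circles AL, open squares RF). Genes left of the line were higher in KO and genes right of it lower; for every gene shown the 4 KO livers lie apart from the 4 WT livers.

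Of 18 core clock genes tested, 2 were higher in KO at ZT12, Arntl among them, and 1 was lower, Cry2, where 0.588% of all genes tested were called. DESeq2 called 5 of the 18 and voom 4. Of 21 E-box targets of BMAL1 and CLOCK 2 were higher, Insig2 among them, and 0 lower, with a median log2 fold change of 0.24 against -0.02 over all genes tested. Insig2 did not have the late-day peak described above for E-box genes. Its mean WT level was 276.5 CPM at ZT0 and 64.8 CPM at ZT12, the lowest of the 6 times. Dbp, a PAR bZIP activator and one of the most rhythmic genes of the liver, stood at 47 and 75.8 CPM in KO AL and 50.7 and 58.1 in KO RF livers. Its level was 69.4 and 78.1 CPM in WT AL and 46.2 and 58.5 in WT RF livers. The KO and WT ranges lay on top of each other (log2 -0.10 ± 0.18, adjusted p = 0.869). Ciart, an E-box gene whose protein also represses BMAL1 and CLOCK and whose promoter is printed above, stood at 27.4 and 38.7 CPM in KO AL and 57.6 and 37.3 in KO RF livers. Its level was 34.7 and 36.4 CPM in WT AL and 21.8 and 42 in WT RF livers, again overlapping (log2 0.24 ± 0.25, adjusted p = 0.747). Per1, Per2 and Per3, the partners of the cryptochromes, had log2 fold changes of 0.18 ± 0.17, 0.33 ± 0.20 and -0.46 ± 0.24, with adjusted p of 0.708, 0.544 and 0.485. Nr1d1 gave 0.55 ± 0.24 (adjusted p = 0.409) and Nr1d2 gave -0.48 ± 0.14 (adjusted p = 0.184). The 4 KO livers of Nr1d2, at 83.9 to 107 CPM, all lay under the 4 WT livers, at 124 to 148 CPM. Bhlhe41, an E-box repressor, was at 6.99 to 11.2 CPM in KO and 1.68 to 4.01 CPM in WT without overlap, and just missed the threshold (log2 1.68 ± 0.31, adjusted p = 0.056). A p above the threshold does not show that these levels were the same. Without both WT livers high in Saa1 or Isg15, 1 of the 21 E-box genes was still called.

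**Figure D2:**
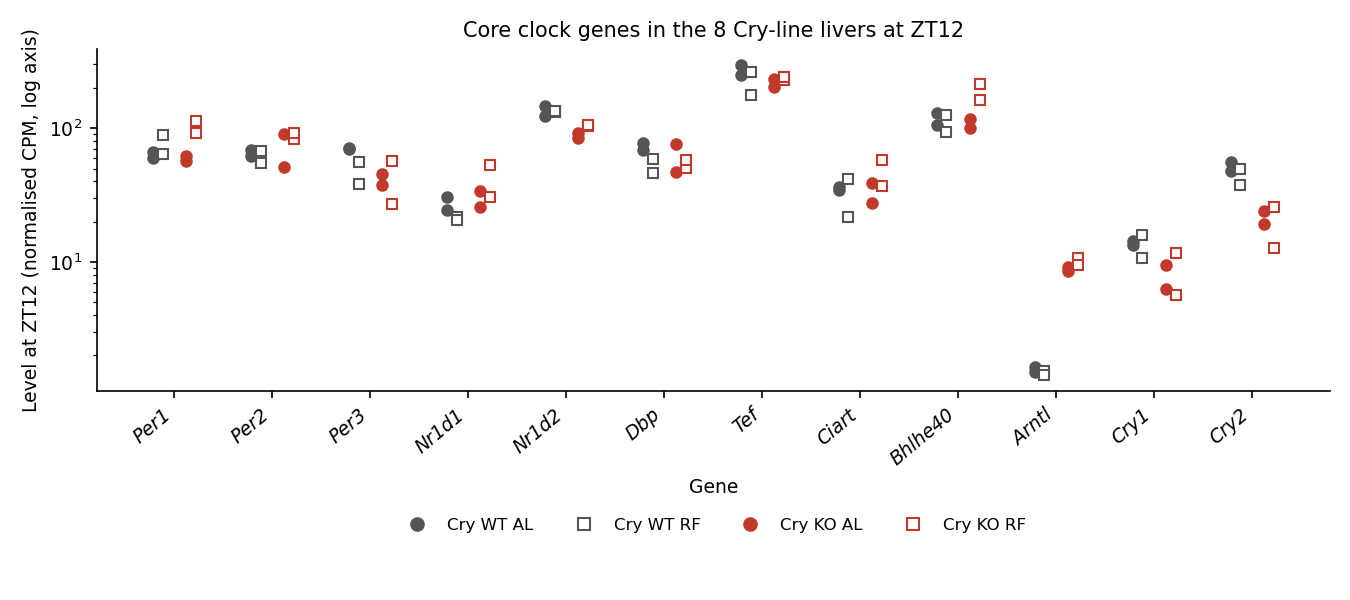
Levels of 12 core clock genes at ZT12 in each of the 8 livers (y axis, normalised CPM on a log axis; x axis, gene; grey WT, red KO; filled circles AL, open squares RF). The groups overlap for Dbp, Ciart and the Per genes and are apart for Arntl, Cry2 and Nr1d2, the last of which was not called.

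Arntl (chr7:113207465-113314126, plus strand) was the clock gene with the largest difference. It stood at 9.24 and 8.61 CPM in KO AL and 10.7 and 9.42 in KO RF livers. Its level was 1.65 and 1.49 CPM in WT AL and 1.52 and 1.42 in WT RF livers, a KO mean of 9.49 ± 0.863 CPM against 1.52 ± 0.0934 CPM (SD, n = 4 each), and the log2 fold change was 2.64 ± 0.21 (SE; adjusted p = 0.00192). All 8 fits that left out 1 liver kept the call. Clock, the partner of BMAL1, had overlapping groups (log2 0.66 ± 0.25, adjusted p = 0.332). Of 10 REV-ERB and ROR targets tested 2 were called, Arntl among them, where 0.588% of all genes tested were called. Their median log2 fold change was 0.65. Elovl3, a fatty acid elongase, was at 116 to 348 CPM in KO and 10.3 to 53.9 CPM in WT (log2 2.88 ± 0.52, adjusted p = 0.0539). Cyp8b1, the sterol 12α-hydroxylase of bile acid synthesis, was at 331 to 595 and 67.3 to 216 CPM (log2 1.68 ± 0.38, adjusted p = 0.107). Both were apart in level without passing the test, and both were called by DESeq2 and in the fit of 48 livers.

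Whether the knockout effect at ZT12 differed from that at ZT0 was tested as a difference of log2 fold changes, ZT12 minus ZT0, which was called for 447 of 17227 genes (2.59%), 239 in the positive direction (1.39%) and 208 in the negative (1.21%). Effects at times other than ZT12, and all differences between times, come from the fit of 48 livers, and a fold change at ZT12 from the fit of 8 unless stated. At ZT0, where 1.53% of all genes were called higher and 0.784% lower, 15 of the 21 E-box targets were higher in KO and 1 lower. Their median log2 fold change was 2.01 there and 0.24 at ZT12. These ZT0 calls are from the fit of 48 livers, and the 2 E-box calls at ZT12 given above from the fit of 8. The 2 counts are therefore not like for like. In the fit of 48 livers, Insig2, Bhlhe41 and Nampt were among the genes called at ZT12, Nampt being lower in KO (adjusted p = 4.21e-05, 0.00583 and 0.00772). The difference itself was called negative for 11 of 21 and positive for 3. Dbp was 7.62 ± 0.48 higher in KO at ZT0 on the log2 scale, where WT livers held 0.335 to 0.578 CPM and KO livers 66.7 to 90.6 CPM, and the difference between the 2 times was -7.72 ± 0.57 (SE; adjusted p = 3.05e-10). The mean KO level was 76.8 ± 10.1 CPM at ZT0 and 57.9 ± 12.8 CPM at ZT12, and the mean WT level at ZT12 was 63.1 ± 13.8 CPM (SD, n = 4 each). The same contrast was -5.73 ± 0.50 for Ciart, -4.91 ± 0.39 for Per3, -4.11 ± 0.27 for Nr1d2, -3.68 ± 0.34 for Nr1d1, -3.44 ± 0.40 for Per1 and -2.82 ± 0.22 for Tef, the last encoding another PAR bZIP activator. Arntl went the other way, from -2.03 ± 0.22 at ZT0 to 2.64 ± 0.21 at ZT12, a difference of 4.67 ± 0.33 (adjusted p = 1.09e-10). Its 4 KO livers held 6.76 to 8.50 CPM at ZT0 and 8.61 to 10.7 CPM at ZT12, while WT livers fell from 30.4 to 33.3 CPM to 1.42 to 1.65 CPM. Cry2 was lower in KO at ZT12 and did not differ detectably at ZT0 (-0.03 ± 0.16), and the difference of -1.18 ± 0.23 passed (adjusted p = 0.00422).

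**Figure D3:**
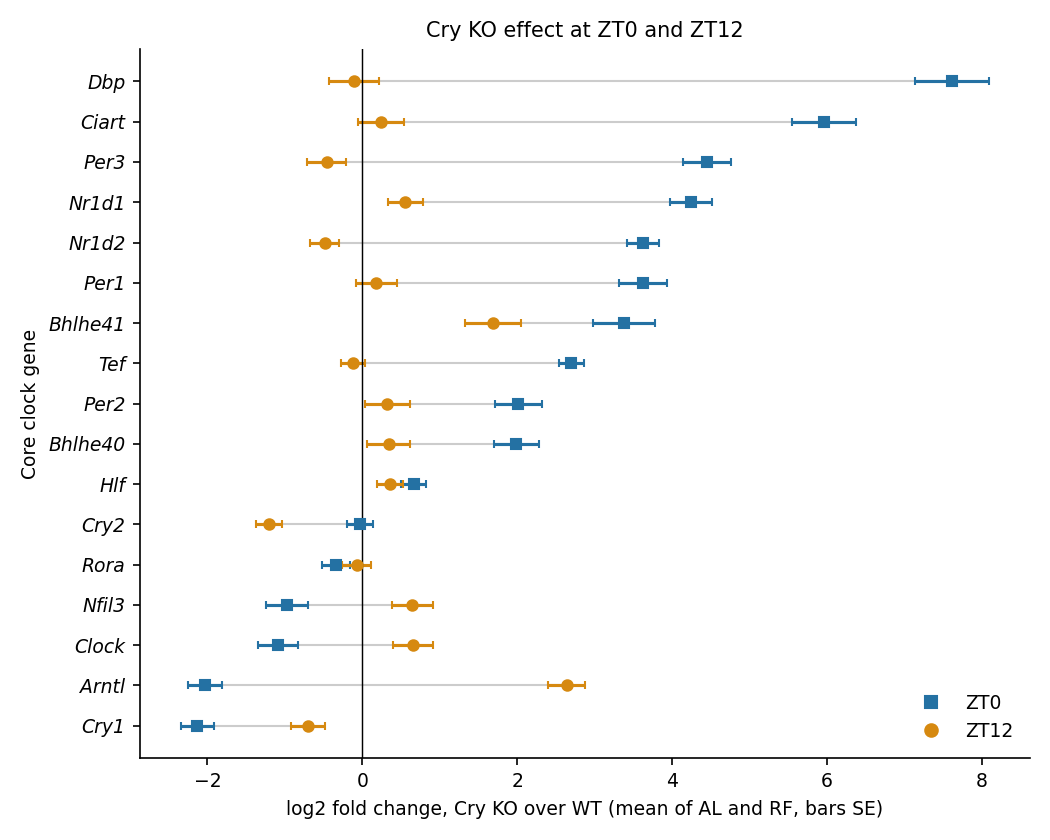
Knockout effect on 17 core clock genes at ZT0 (blue squares) and ZT12 (orange circles), as log2 fold change of Cry KO over WT averaged over AL and RF (x axis) with its SE, from the fit of 48 livers; genes are on the y axis. Dbp moves from 7.62 at ZT0 to -0.11 at ZT12 and Arntl from -2.03 to 2.64.

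Among the 86 genes, 25 were called in the same direction at ZT0, 8 in the opposite direction, and 44 had a called difference between the 2 times. Smpdl3b, Nup62cl, Cyfip2, Cyp2b9 and Nat8 had a positive log2 fold change at all 6 times. Smpdl3b (chr4:132732966-132757252, minus strand), which encodes a sphingomyelinase-like phosphodiesterase of the plasma membrane, stood at 17.3 and 17.7 CPM in KO AL and 13 and 15.8 in KO RF livers. Its level was 0.696 and 0.497 CPM in WT AL and 0.802 and 0.674 in WT RF livers. No KO liver came near a WT liver (log2 4.58 ± 0.25, adjusted p = 0.000134), and the effect at the 6 times ran from 4.57 at ZT12 to 5.68 at ZT4. Nup62cl on the X chromosome, a gene named for its likeness to the nucleoporin Nup62, stood at 15.7 and 11.9 CPM in KO AL and 13.8 and 14.5 in KO RF livers. Its level was 0.769 and 0.796 CPM in WT AL and 0.521 and 0.824 in WT RF livers (log2 4.26 ± 0.24, adjusted p = 0.000134). Cyfip2, whose protein belongs to the WAVE complex that governs actin, ranged from 38.4 to 112 CPM in KO and from 1.42 to 5.69 CPM in WT (log2 4.40 ± 0.49, adjusted p = 0.00894). It lost its call without KO RF replicate 5. Cyp2b9, a cytochrome P450 that is female-biased in mouse liver, stood at 8.81 and 61 CPM in KO AL and 70.8 and 33.1 in KO RF livers. Its level was 0.293 and 0 CPM in WT AL and 1.16 and 3.15 in WT RF livers. The 4 KO livers spread widely and were all above the WT livers (log2 5.75 ± 0.93, adjusted p = 0.0385). Its effect at ZT0 was 7.26 ± 0.74, and the difference between the times did not pass (adjusted p = 0.845). Nat8, a liver and kidney acetyltransferase with several close copies, was at 52.7 to 172 CPM in KO and 11.1 to 29.4 CPM in WT (adjusted p = 0.0205). At ZT0 its log2 fold change was 2.62 ± 0.36. Reads of Cyp2b9, Nat8 and Raet1d may be split with near-identical family members, so their levels are uncertain.

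On the lower side, Enpp2, which encodes autotaxin, the secreted enzyme that makes lysophosphatidic acid, stood at 20.2 and 18.2 CPM in KO AL and 36.8 and 33.1 in KO RF livers. Its level was 100.3 and 109.5 CPM in WT AL and 106 and 152 in WT RF livers. Every KO liver held less than every WT liver (log2 -2.16 ± 0.18, adjusted p = 0.00192), all 8 fits that left out 1 liver kept the call, and at ZT0 the effect was -1.77 ± 0.24. Raet1d, a ligand of the NKG2D receptor of natural killer cells, was at 0.354 to 0.928 CPM in KO and 4.21 to 16.6 CPM in WT (log2 -3.49 ± 0.42, adjusted p = 0.0147), and -3.45 ± 0.47 at ZT0. Pla2g12a, a secreted phospholipase A2, was at 5.31 to 6.03 CPM in KO and 11.5 to 21.1 CPM in WT (log2 -1.55 ± 0.20, adjusted p = 0.0153). The differences between ZT12 and ZT0 of Enpp2, Raet1d and Pla2g12a did not pass (adjusted p = 0.737, 1 and 1).

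Other genes were higher in KO at ZT12 with a smaller or opposite effect at ZT0. Among them, Acnat2, Srgap3 and Serpine2 had a positive log2 fold change at every time. Their effects were 3.25, 1.68 and 2.8 at ZT4 and 3.87, 2.21 and 2.25 at ZT8, all called. Against the mean effect of the other times, the ZT12 effect differed for Srgap3 (edgeR adjusted p = 0.0168). It did not differ detectably for Acnat2 or Serpine2 (adjusted p = 0.213 and 0.502). Slc30a10, a manganese exporter, stood at 73.4 and 65.5 CPM in KO AL and 77.2 and 82.2 in KO RF livers. Its level was 14.2 and 24.9 CPM in WT AL and 11.2 and 15 in WT RF livers. WT livers were low at this hour in both regimens and KO livers were not (log2 2.22 ± 0.24, adjusted p = 0.00819). At ZT0 the effect was -0.59 ± 0.21, and the difference was 2.81 ± 0.30 (adjusted p = 3.73e-07). Tubb2a, a β-tubulin, stood at 58.3 and 45.4 CPM in KO AL and 31.7 and 66 in KO RF livers. Its level was 12 and 9.88 CPM in WT AL and 9.3 and 8.32 in WT RF livers (log2 2.36 ± 0.24, adjusted p = 0.00721). At ZT0 the order was turned, with 83.8 to 175.2 CPM in WT and 24.8 to 102.3 CPM in KO livers, and the effect changed by 3.67 ± 0.47 between the times (adjusted p = 9.84e-06). Acnat2, a peroxisomal enzyme that conjugates fatty acids to amino acids, stood at 112 and 106 CPM in KO AL and 129 and 247 in KO RF livers. Its level was 8.31 and 6.2 CPM in WT AL and 24.2 and 9.56 in WT RF livers (log2 3.69 ± 0.35, adjusted p = 0.00409; difference from ZT0 2.29 ± 0.64, adjusted p = 0.0487). Srgap3, a GTPase-activating protein, ranged over 9.43 to 18.5 CPM in KO and 0.681 to 2.06 CPM in WT (log2 2.90 ± 0.36, adjusted p = 0.0147). Insig2, which holds SREBP precursors in the endoplasmic reticulum, stood at 127 and 217 CPM in KO AL and 164 and 266 in KO RF livers. Its level was 52.5 and 51.8 CPM in WT AL and 76.7 and 78.1 in WT RF livers (log2 1.60 ± 0.22, adjusted p = 0.0213), and its effect of -0.54 ± 0.22 at ZT0 differed (adjusted p = 6.77e-05). Serpine2, a secreted protease inhibitor, was at 17.2 to 66.2 CPM in KO and 1.6 to 7.23 CPM in WT at the edge of the threshold (log2 2.92 ± 0.52, adjusted p = 0.0499), and its difference from ZT0 did not pass (adjusted p = 0.64).

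Cldn1, Avpr1a and Chka were singled out after their values were seen. Cldn1, the tight-junction protein claudin-1, stood at 102 and 112 CPM in KO AL and 93.8 and 106 in KO RF livers. Its level was 21.6 and 32.2 CPM in WT AL and 27.5 and 10.5 in WT RF livers (log2 2.19 ± 0.30, adjusted p = 0.0205; difference from ZT0 2.45 ± 0.30). Avpr1a, the hepatic vasopressin receptor, was at 31.7 to 41.4 CPM in KO and 12.2 to 14.1 CPM in WT (log2 1.50 ± 0.16, adjusted p = 0.00721), with a tight spread in both genotypes, and the call was kept in all 8 fits without 1 liver. Chka, choline kinase alpha, the first step of phosphatidylcholine synthesis, was at 37.5 to 51.8 and 18.1 to 25.2 CPM (log2 1.21 ± 0.17, adjusted p = 0.0225), whereas at ZT0 it was lower in KO (-1.94 ± 0.23). For Avpr1a the ZT0 effect was likewise negative (-0.83 ± 0.17), and the differences of 2.32 ± 0.24 and 3.15 ± 0.33 had adjusted p of 2.74e-07 and 2.78e-07.

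Heat shock genes encode chaperones that hold and refold proteins. Of 13 heat shock genes 3 were called higher and 0 lower, where 0.369% of all genes tested were called higher. All 13 had a positive log2 fold change, as had 47.7% of all genes tested, and the median was 0.77. Hspb1, a small heat shock protein, stood at 19.3 and 54.6 CPM in KO AL and 14.4 and 44 in KO RF livers. Its level was 4.91 and 4.41 CPM in WT AL and 3.65 and 3.79 in WT RF livers (log2 2.98 ± 0.41, adjusted p = 0.0213). Hsp90aa1, the inducible HSP90, stood at 267 and 375 CPM in KO AL and 252 and 396 in KO RF livers. Its level was 115 and 125 CPM in WT AL and 113 and 99.5 in WT RF livers (log2 1.52 ± 0.21, adjusted p = 0.0205). Hsph1, an HSP70 exchange factor, stood at 138 and 134 CPM in KO AL and 130.5 and 241 in KO RF livers. Its level was 54.4 and 68.4 CPM in WT AL and 38.1 and 61.8 in WT RF livers (log2 1.53 ± 0.27, adjusted p = 0.0468). For each of the 3 genes every KO liver was above every WT liver, and each had a called difference from ZT0, of 2.08 ± 0.53, 1.39 ± 0.30 and 1.66 ± 0.42. At ZT0 the list median was 0.03 and 0 of 13 were called by edgeR. DESeq2 called 7 of 13 at ZT12 and the fit of 48 livers 5. By edgeR 0 of 13 were called without KO AL replicate 2, KO RF replicate 5, WT AL replicate 2 or WT RF replicate 9, or without both WT livers high in Saa1 or Isg15. The median stayed between 0.55 and 0.90 in every fit that left out 1 liver.

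Of 16 genes of the unfolded protein response, the program that the endoplasmic reticulum raises when proteins misfold, 1 was called higher, Sdf2l1, and 15 had a positive log2 fold change, with a median of 0.57. Over all genes tested, 0.369% were called higher and 47.7% had a positive log2 fold change. Sdf2l1, an endoplasmic reticulum chaperone cofactor, stood at 43.3 and 104 CPM in KO AL and 30.3 and 50.4 in KO RF livers. Its level was 14.9 and 21.8 CPM in WT AL and 11.3 and 11.1 in WT RF livers (log2 1.93 ± 0.30, adjusted p = 0.0289). Hyou1, a chaperone of the HSP110 type, stood at 428 and 509 CPM in KO AL and 363 and 463 in KO RF livers. Its level was 144 and 254 CPM in WT AL and 119 and 206 in WT RF livers, without overlap and short of the threshold (log2 1.30 ± 0.25, adjusted p = 0.0632), and Creld2 gave log2 1.81 ± 0.36, adjusted p = 0.0725. Syvn1, the ubiquitin ligase HRD1 of endoplasmic reticulum degradation, which was outside the list and picked after its values were seen, was called (log2 1.13 ± 0.20, adjusted p = 0.0468) but in 0 of 8 fits without 1 liver. The difference from ZT0 was called positive for 9 of 16 and negative for 0. Among the 9 were Sdf2l1 (2.92 ± 0.44), Creld2 (3.14 ± 0.54) and Hyou1 (2.23 ± 0.32). At ZT0 Hyou1 was called lower in KO (log2 -0.95 ± 0.23, edgeR adjusted p = 0.0167), though its KO and WT ranges overlapped. Sdf2l1 and Creld2 had log2 fold changes of -1.01 ± 0.31 and -1.34 ± 0.38 there, which did not pass (edgeR adjusted p = 0.0855 and 0.0581). The fit of 48 livers called 7 of 16 at ZT12 and DESeq2 6. In turn, 0 of 16 were called by edgeR without both WT livers high in Saa1 or Isg15. Over the day, mean levels of Hsp90aa1 were lowest at ZT8 and highest at ZT16 in both genotypes. They were 82.0 CPM at ZT8, 113 at ZT12 and 564 at ZT16 in WT, and 122, 322.5 and 505 CPM in KO. In WT AL Hsp90aa1 went from 114.6 and 125.4 CPM at ZT12 to 716 and 523 CPM at ZT16, and KO AL livers, at 375 and 267 CPM at ZT12, stood between these. The plot of list medians shows both lists at their highest median at ZT12.

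**Figure D4:**
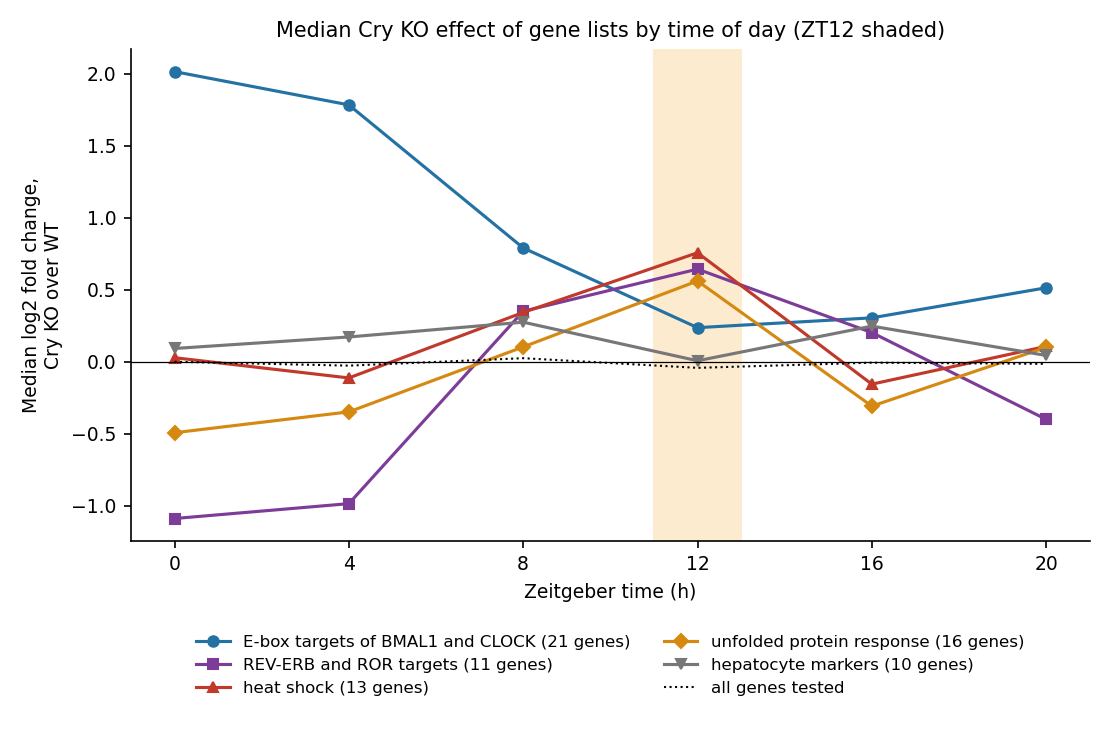
Median log2 fold change of Cry KO over WT (y axis) of 5 gene lists and of all genes tested (dotted) at 6 times of day (x axis, zeitgeber time in h; ZT12 shaded), from the fit of 48 livers. The E-box list falls from 2.01 at ZT0 to 0.24 at ZT12, and the heat shock and unfolded protein response lists are at 0.76 and 0.56 at ZT12.

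Among the 32 genes lower in KO at ZT12, Lpin1 had the largest fold of those named by rule. Lpin1 (chr12:16535669-16610966, minus strand), a phosphatidate phosphatase and coactivator of fatty acid oxidation, stood at 58.8 and 51.8 CPM in KO AL and 149 and 58.7 in KO RF livers. Its level was 1007 and 372 CPM in WT AL and 436 and 1718 in WT RF livers. WT livers spread widely and all lay above every KO liver (log2 -3.50 ± 0.51, adjusted p = 0.0259). At ZT0 the effect was 1.31 ± 0.60, and the difference was -4.82 ± 0.88 (adjusted p = 0.00155). Lpin1 was lost to the threshold in 6 of 8 fits without 1 liver. In KO RF it was high at another hour: the 2 livers, in libraries of 1478963 and 4541141 counts, held 703 and 571 CPM at ZT4, where KO AL, WT AL and WT RF livers held 35.9 to 67.9 CPM. Gpcpd1, a glycerophosphocholine phosphodiesterase, stood at 45.8 and 66.5 CPM in KO AL and 138 and 47.1 in KO RF livers. Its level was 378 and 194 CPM in WT AL and 758 and 631 in WT RF livers (log2 -2.62 ± 0.37, adjusted p = 0.0213). Its difference from ZT0 was -3.31 ± 0.43 (adjusted p = 1.01e-05). Mfsd2a, a fasting-induced lysophospholipid transporter, was at 7.04 to 23.7 CPM in KO and 36 to 216 CPM in WT (log2 -2.30 ± 0.40, adjusted p = 0.0468). Ulk1, the kinase that starts autophagy, singled out after its values were seen, was at 51.8 to 67 and 121 to 148 CPM (log2 -1.13 ± 0.15, adjusted p = 0.0185).

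Slc38a2, a sodium-coupled neutral amino acid transporter, stood at 108 and 98 CPM in KO AL and 142 and 117 in KO RF livers. Its level was 320.0 and 190.5 CPM in WT AL and 378 and 336 in WT RF livers (log2 -1.38 ± 0.19, adjusted p = 0.0213). Sds, serine dehydratase, which feeds amino acid carbon into gluconeogenesis, stood at 76.6 and 55.7 CPM in KO AL and 75.9 and 54.1 in KO RF livers. Its level was 217 and 109.5 CPM in WT AL and 154 and 247 in WT RF livers (log2 -1.46 ± 0.26, adjusted p = 0.0495) and was the 1 gene of 14 of gluconeogenesis that was called, all but 1 of which had a negative log2 fold change. Of all genes tested, 47.7% had a positive log2 fold change. Slc38a2 and Sds were lower in every KO liver, and their effects differed from ZT0, by -1.72 ± 0.25 and -2.02 ± 0.48. Of 12 pericentral genes, those of hepatocytes near the central vein, 2 were lower and 0 higher, where 0.219% of all genes tested were lower. Both lost the call in 7 of 8 fits without 1 liver. Oat, ornithine aminotransferase, was at 223 to 434 CPM in KO and 597 to 952 CPM in WT (log2 -1.38 ± 0.23, adjusted p = 0.0423), and Slc1a2, a glutamate transporter, was at 104 to 179 and 271 to 303 CPM (log2 -1.15 ± 0.17, adjusted p = 0.0278). Of 12 periportal genes 1 was lower, Sds again. The 12 Kupffer cell markers summed to 360.9 to 590.2 CPM in KO and 268.3 to 1286 CPM in WT and 0 of them were called or had an unadjusted p under 0.05. Tlr5, the flagellin receptor, gave log2 -1.70 ± 0.29, adjusted p = 0.0445, Rdh9, a retinol dehydrogenase, log2 -1.84 ± 0.25, adjusted p = 0.0205, and Ctcflos, an antisense transcript whose reads may not be separable from its partner's, log2 -1.72 ± 0.26, adjusted p = 0.0287.

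**Figure D5:**
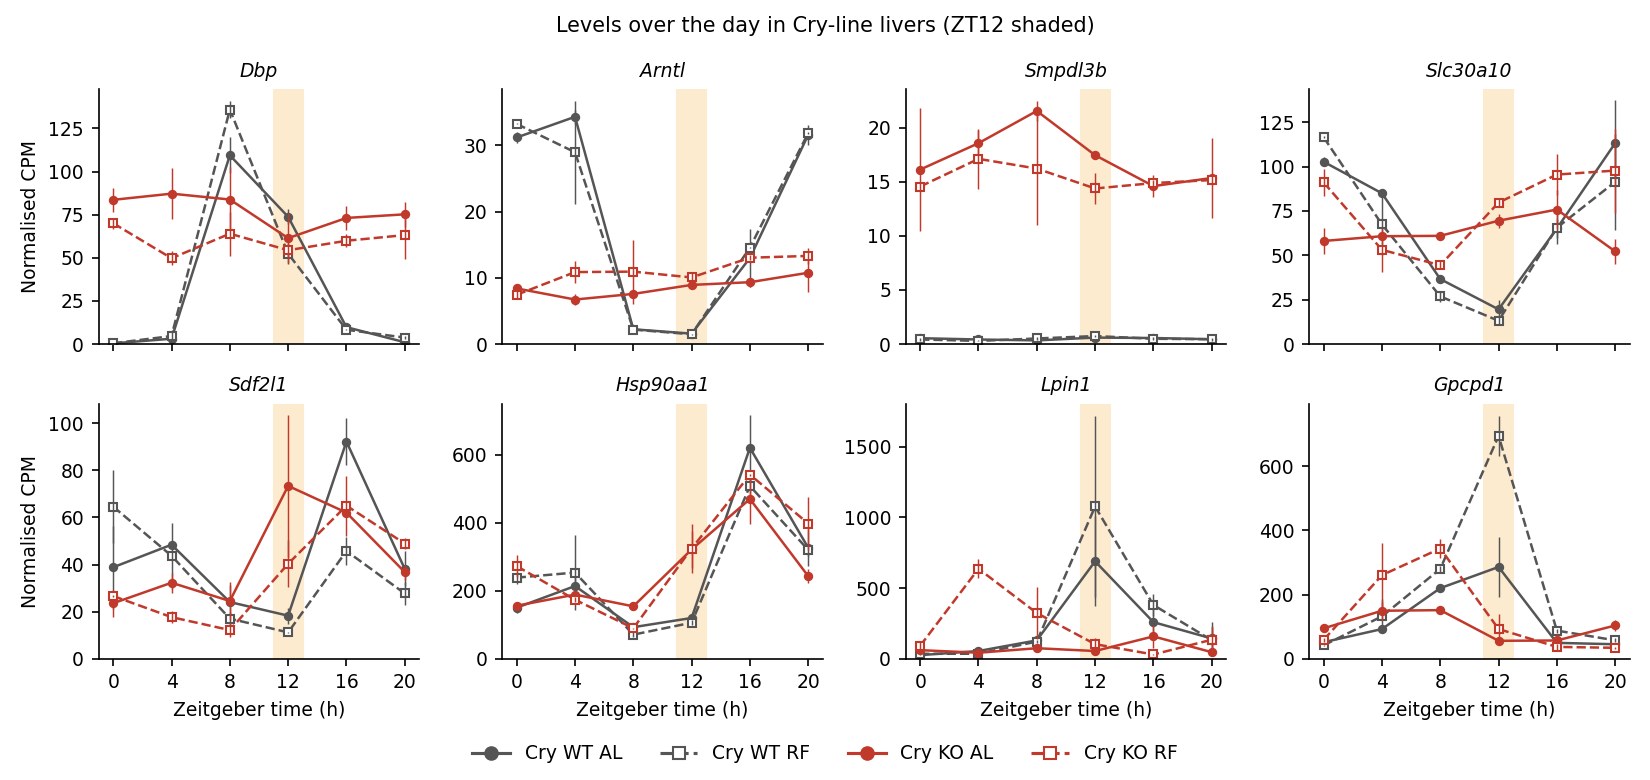
Levels of 8 genes over the day in Cry-line livers (y axis, normalised CPM from 0; x axis, zeitgeber time in h; ZT12 shaded; grey WT, red KO; solid lines and filled circles AL, dashed lines and open squares RF; points are means of 2 livers and vertical bars join the 2). At ZT12 Slc30a10 and Arntl lie above WT and Lpin1 and Gpcpd1 below, and Dbp overlaps, whereas Smpdl3b is above WT at every time.

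Other metabolic lists held few calls. Over all 14622 genes tested, edgeR called 0.369% higher and 0.219% lower, and 1753 had an unadjusted p under 0.05. DESeq2 called 306 of them higher and 253 lower, and voom 54 higher and 26 lower. Of 22 PPARA targets of fatty acid oxidation 1 was higher, Pdk4, the kinase that shuts pyruvate out of oxidation, at 8.33 to 16.9 CPM in KO and 2.29 to 4.53 CPM in WT (log2 1.80 ± 0.31, adjusted p = 0.0468). Of 11 NRF2 targets 2 glutathione transferases were higher, Gsta1 (log2 2.78 ± 0.40, adjusted p = 0.0246) and Gsta4 (log2 1.53 ± 0.24, adjusted p = 0.0331), which belong to a family with near-identical copies; for both, the effect at ZT0 was positive too (3.27 ± 0.82 and 1.26 ± 0.31). Of 17 xenobiotic metabolism genes Cyp2b9 was the 1 called, and it was also the 1 of 7 female-biased genes. The median log2 fold change of the 7 was -0.85, with 1 higher and 2 lower at an unadjusted p under 0.05. DESeq2 called 1 of them higher and 1 lower. Of 37 lists, 25 held no gene called by edgeR, and 15 of these none by DESeq2 or voom either. Among the 25 were 20 lipogenesis genes (1 higher and 1 lower at an unadjusted p under 0.05; DESeq2 1 and 1; voom 1 higher), 22 of cholesterol synthesis (1 higher and 3 lower unadjusted; DESeq2 1 higher) and 15 glucocorticoid response genes (7 lower unadjusted, DESeq2 6 lower, median log2 -0.92). For 19 male-biased genes the median was 0.56, with 6 higher unadjusted and 4 by DESeq2.

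In the interferon response 1 liver stood far from the rest. Of 16 genes 0 were called by edgeR, with 14 lower at an unadjusted p under 0.05, DESeq2 called 5 lower, voom 0 and the fit of 48 livers 12 lower. Over all 14622 genes tested, 1753 had an unadjusted p under 0.05 in either direction and DESeq2 called 253 lower. The fit of 48 livers called 1.82% of its genes lower. The median log2 fold change of the interferon list was -1.67. Irf7, a master regulator of interferon genes, stood at 29.7 and 36 CPM in KO AL and 14.5 and 16 in KO RF livers. Its level was 368 and 43.7 CPM in WT AL and 51.6 and 41.1 in WT RF livers, so that WT AL replicate 2 was far above the other 7 livers. Mx1, an antiviral GTPase, was at 0.219 to 1.19 CPM in KO and 1.65 to 8.68 CPM in WT (log2 -2.29 ± 0.48, adjusted p = 0.0829). The summed list was 1635 CPM in WT AL replicate 2, 288.4 to 337 CPM in the other WT livers and 195.1 to 421.8 CPM in KO livers. Without that liver and WT RF replicate 6 the median was -0.67 and 0 of 16 were called. Of 15 acute-phase genes 0 were called by edgeR, DESeq2 or voom and 1 was lower unadjusted, and the median went from -0.88 to 0.55 without both livers. WT RF replicate 6 also held 149.8 CPM of neutrophil markers against 1.65 to 11 CPM elsewhere, and 250.5 CPM of cholangiocyte markers against 45.8 to 102.1 CPM.

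A difference of the knockout effect between feeding regimens was not detectable at this depth by the main test. Within AL, 3 of 15217 genes were called (0.0197%), Smpdl3b, Nup62cl and Enpp2, and 1210 had an unadjusted p under 0.05. Within RF 2 were called (0.0131%), Smpdl3b and Nup62cl, with 1048 unadjusted. The difference of the effect between RF and AL was called for 0 genes (0.00%) by edgeR, with 304 at an unadjusted p under 0.05, for 0 by voom and for 3 by DESeq2. With 2 livers per group and shallow KO RF libraries, a difference could go unseen. For Slc30a10 the log2 fold change was 1.84 in AL and 2.60 in RF, for Lpin1 -3.63 and -3.37, for Arntl 2.51 and 2.76, and for Enpp2 -2.44 and -1.88.

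The knockout effect at ZT12 was also set against the mean effect of the 5 other times, and the difference was called for 374 of 17227 genes (2.17%), 221 positive (1.28%) and 153 negative (0.888%). Of the 86 genes 40 were among them. Positive ones included Arntl (3.34), Tubb2a (3.16), Chka (2.34), Slc30a10 (2.29), Hspb1 (2.29), Sdf2l1 (2.28) and Cldn1 (2.14), as differences of log2 fold change. Negative ones included Dbp (-3.91), Ciart (-3.65), Lpin1 (-3.62), Gpcpd1 (-2.84), Por (-1.84) and Slc38a2 (-1.63), Por being the electron donor of cytochromes P450. For Cyfip2, Smpdl3b, Nup62cl, Enpp2 and Raet1d the values of -0.08, -0.67, -0.04, -0.25 and 0.15 did not pass.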

How the data were processed

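mRNA of 96 mouse livers was sequenced by the submitters with a stranded kit. The submitters' processing notes name STAR 2.4.0i and the build mm10. How reads were counted, with which strand setting and annotation, is not given in the sources used here. The authors deposited raw counts per Ensembl gene, 1 column per library. Of 55421 identifiers 55240 matched a GENCODE M21 symbol; the other 181 held 0.0244% of counts. Every column was assigned to a sample by its title. The members, the comparisons and the 37 gene lists were chosen with earlier results of these data known.

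Counts were analysed in R 4.3.3 with edgeR 4.0.16: TMM scaling, filterByExpr (minimum count 10, total 15), quasi-likelihood fit with feeding and genotype on the 8 livers of ZT12, and Benjamini-Hochberg adjustment over all genes tested, two-sided, called at 0.05. Effects within AL and RF and their difference came from a mean per group in the same livers. Differences between times came from a fit of the 48 Cry-line livers with a mean for each of 24 groups. Log2 fold changes are KO minus WT, with their SE. Levels are CPM with TMM factors of the 48 livers and take no account of gene length, so they compare livers and not genes. The fits were tested on simulated counts.

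Named genes were the core clock, the 12 largest folds in each direction of genes called at 5 CPM or more without overlap (leaving out predicted genes, pseudogenes and short RNAs, 1 gene), up to 4 genes of each list and 5 of each difference in each direction; the text uses a selection, and others are said to be chosen after their values were seen. Some genes enter counts but are not reported here by name. Alternatives were RLE scaling, a filter at a mean of 1 CPM, no filter, DESeq2 1.42.0, voom of limma 3.58.1, other sets of livers, no feeding term and leaving out each liver; fits without the livers that stood apart, with a replicate block and of each time alone were added after seeing the data.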

Additional observations from a re-analysis of the deposited data

Results flagged for a closer look

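The knockout effect at ZT12 differed from that at ZT0 for 447 genes and from the mean of the 5 other times for 374. Of the genes named here 47 had a called difference from ZT0, given as ZT12 minus ZT0 in log2. Core clock genes with a positive difference were Arntl (4.67), Clock (1.74), Nfil3 (1.62) and Cry1 (1.43). Those with a negative difference were Dbp (-7.72), Ciart (-5.73), Per3 (-4.91), Nr1d2 (-4.11), Nr1d1 (-3.68), Per1 (-3.44), Tef (-2.82), Per2 (-1.69), Bhlhe40 (-1.65) and Cry2 (-1.18). Chaperones and endoplasmic reticulum genes with a positive difference were Creld2 (3.14), Sdf2l1 (2.92), Syvn1 (2.47), Hyou1 (2.23), Hspb1 (2.08), Hsph1 (1.66) and Hsp90aa1 (1.39). Positive differences outside these groups were found for Pitx3 (6.74), Bhlha15 (4.77), Atp2b2 (4.68), Clic3 (4.58), Elovl3 (4.43), Tubb2a (3.67), Chka (3.15), Slc30a10 (2.81), Pdk4 (2.67), Cldn1 (2.45), Avpr1a (2.32), Acnat2 (2.29), Srgap3 (2.24) and Insig2 (2.13). Enzymes, transporters and kinases with a negative difference were Lpin1 (-4.82), Gpcpd1 (-3.31), Por (-2.21), Got1 (-2.05), Sds (-2.02), Nampt (-1.78), Slc38a2 (-1.72), Ulk1 (-1.70), Rdh9 (-1.28) and Slc1a2 (-0.99). The negative differences of Rgs16 (-8.00) and Ctcflos (-1.95) complete the set. Differences of genes with few counts, such as Pitx3 and Atp2b2, rest on WT levels under 1 CPM at ZT12.

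In 144 sets of 4 livers of a genotype at ZT12, 1 set per genotype and named gene, 14 had a liver far from the other 3. For normally distributed levels chance gives about 1 set in 20, but the distribution was not checked and genes are not independent. KO AL replicate 1 was the one apart for Npas2 (0.0708 CPM, the others at 0), Srgap3 (18.5 CPM, the others 9.43 to 10.3) and Atp2b2 (17.2 CPM, the others 1.25 to 3.73). The Npas2 level lies at the floor of detection, where a few counts set it apart. KO AL replicate 2 was the one apart for Nat8 (172 CPM, the others 52.7 to 72.8), Mfsd2a (7.04 CPM, the others 21.8 to 23.7) and Chka (37.5 CPM, the others 50.1 to 51.8). KO RF replicate 3 was the one apart for Lpin1 (149 CPM, the others 51.8 to 58.8) and Gsta4 (86.1 CPM, the others 107 to 111). KO RF replicate 5 was the one apart for Acnat2 (247 CPM, the others 106 to 129) and Hsph1 (241 CPM, the others 130.5 to 138). WT AL replicate 2 was the one apart for Irf7 (368 CPM, the others 41.1 to 51.6). WT RF replicate 6 was the one apart for Srgap3 (0.681 CPM, the others 1.86 to 2.06), Rdh9 (11.4 CPM, the others 14.4 to 15) and Gsta4 (18.9 CPM, the others 40.5 to 43.8).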

How the results depend on the processing

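KO and WT livers of a regimen share at most 1 replicate number, so no replicate block could be fitted at ZT12 alone, but the 2 numbers of each group run through all 6 times. Livers of a number deviated alike (r over 0.1) in 44 of 60 pairs of times, 15 of 15 in KO AL. With the numbers as a replicate block, added after seeing the data, the 447 calls for ZT12 minus ZT0 became 1047 and the 374 against the other times 982, with all earlier calls among them. The 86 calls at ZT12 became 922 with no filter, 559 with DESeq2, 691 with all 48 and 908 with all 96 libraries setting the spread, 34 without both WT livers high in Saa1 or Isg15, and 8 to 125 when each liver was left out (35 without KO AL replicate 2, 31 without KO AL replicate 1, 16 without KO RF replicate 3, 8 without KO RF replicate 5, 18 without WT AL replicate 2, 22 without WT RF replicate 9). The share of calls that were higher in KO, 62.8%, was 37.5% with no filter, 48.1% with 96 libraries and 49.2% of 120 calls without the 3 livers that stood apart. The 3 calls in AL became 456 with no filter, 148 with DESeq2, 135 with 48 libraries and 0 to 47 when each liver was left out. The 2 calls in RF became 556, 181, 178 and 0 to 87, and 0 with voom. The 0 calls for the difference between regimens became 237 with no filter, 3 with DESeq2 and 0 to 14 when each liver was left out. The 447 calls for ZT12 minus ZT0 became 718 with no filter, 186 with the 16 libraries of both times, 222 without both WT livers, 213 without 3 livers and 210 to 448 when each liver was left out (lowest without WT AL replicate 2, 266 without KO RF replicate 5). The 374 calls against the other times became 747, 666 with DESeq2, 133, 87 and 106 to 409 (lowest without WT AL replicate 2, 156 without KO RF replicate 5, 207 without KO AL replicate 1). The acute-phase median turned from -0.88 to 0.55 without both WT livers. Of 38 named genes called at ZT12 all 38 kept their direction when each liver was left out, 7 keeping the call in all 8 fits. The cause of each change was not tested. Depth limits the KO RF livers most.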

Other observations

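Some genes had the largest differences between the knockout effects of ZT12 and ZT0 without being called at ZT12 itself. Pitx3, a homeobox factor best known from dopaminergic neurons, stood at 1.8 and 3.36 CPM in KO AL and 3.94 and 5.26 in KO RF livers. Its level was 0.183 and 0.663 CPM in WT AL and 0 and 0.15 in WT RF livers. Every KO liver was above every WT liver, and the log2 fold change was 3.83 ± 0.79 at ZT12 (adjusted p = 0.0819) against -2.56 ± 0.48 at ZT0. Atp2b2, a plasma membrane calcium pump, was at 1.25 to 17.2 CPM in KO and 0.401 to 0.862 CPM in WT (log2 3.34 ± 0.70, adjusted p = 0.0819), and Clic3, a chloride intracellular channel protein, at 2.17 to 9.64 and 0.512 to 2.19 CPM (log2 2.41 ± 0.55, adjusted p = 0.107). Bhlha15, a factor of secretory cells, was at 15.2 and 5.47 CPM in KO AL and 4.76 and 1.75 in KO RF livers. Its level was 0.0366 and 2.09 CPM in WT AL and 1.16 and 0.562 in WT RF livers, so that the KO and WT ranges overlapped. A contribution of pancreas tissue to its level was not tested. Rgs16, a regulator of G protein signalling known to cycle in liver, was at 3.57 to 66.7 CPM in KO and 2.97 to 129 CPM in WT, overlapping throughout, while at ZT0 its log2 fold change was 7.19 ± 1.14.

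Nampt, Por, Got1 and Fkbp5 had negative log2 fold changes at ZT12 that did not pass the main test on 8 livers. The fit of 48 livers called Nampt, Por and Got1 at ZT12 (adjusted p = 0.00772, 0.00982 and 0.0179) and not Fkbp5 (adjusted p = 0.147). Nampt, the rate-limiting enzyme of NAD salvage, was at 103 to 154 CPM in KO and 154 to 265 CPM in WT (log2 -0.81 ± 0.21, adjusted p = 0.15), against 0.96 ± 0.18 at ZT0. Por was at 290.4 to 437 and 465 to 1025 CPM (log2 -0.99 ± 0.23, adjusted p = 0.111), against 1.21 ± 0.23 at ZT0. Got1, aspartate aminotransferase of the cytosol, gave log2 -1.60 ± 0.36, adjusted p = 0.101, with WT AL replicate 4 at 131.7 CPM inside the KO range of 91.7 to 187 CPM. Fkbp5, a glucocorticoid-induced cochaperone, gave log2 -1.19 ± 0.28, adjusted p = 0.114. Nampt, Por and Got1 had called differences from ZT0, and Fkbp5 did not (adjusted p = 0.228).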
